A study of Mus musculus with 12 samples.

Results

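The long noncoding RNA H19 and 9 other imprinted genes were followed across 12 RNA-seq samples of mouse prostate organoids. The members were the rows named H19, Igf2, Igf2r, Meg3, Dlk1, Peg3, Mest, Plagl1, Ndn and Phlda2, and all 10 were found among the 24674 genes of the table. The set was chosen by an earlier reading of the expression values of these same samples. Their levels and coefficients are therefore given as a description, without p-values, and support nothing beyond the values themselves.

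The organoids, small 3-dimensional epithelial cultures grown in a gel, came from basal cells of wild type prostate of C57BL/6 mice, and the study's methods describe the donors as male. All 12 samples shared this source and genotype. Of the 4 groups of 3 samples, the first received vehicle, the second UK5099, the third butyrate and the last UK5099 + Butyrate, called the combination. UK5099 is an inhibitor of the mitochondrial pyruvate carrier, through which pyruvate enters the matrix. Butyrate is a short fatty acid and an inhibitor of histone deacetylases. Nothing in the labels says whether the 3 replicates came from separate cultures or animals, so the errors measure only the spread between these samples. Depth was 33251858 to 43499009 fragments per sample. A pair of libraries stood apart from their replicates, UK5099 replicate 1 and combination replicate 1, with a chi-square per gene of 6.29 to 6.64 against the others of their group, beside 1.93 to 2.65 for all other pairs. FPM is the fragments of a gene after the sample's total is scaled to 1000000. In FPM, UK5099 replicate 1 was the highest of its group for 7 of the 10 members and the lowest for 1. Combination replicate 1 was the highest of its group for 2 and the lowest for 5.

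Imprinted genes are transcribed mainly from the copy inherited from 1 parent, because DNA methylation set in the egg or sperm marks 1 of the 2 copies. H19, Igf2r, Meg3 and Phlda2 are known as maternally expressed, and Igf2, Dlk1, Peg3, Mest, Plagl1 and Ndn as paternally expressed. H19 and Igf2 lie next to each other and share enhancers and a control region bound by CTCF, so that H19 is made from the maternal copy and Igf2 from the paternal copy. Many of these genes are abundant in the fetus and placenta and low in adult tissue, and H19 also carries the hairpin of miR-675. The table holds total RNA per gene, and the 2 parental copies were not separated.

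The 2 mature microRNAs that are cut from H19 are shown because H19 was the member with the largest coefficients. Both sequences are from RefSeq, build GRCm38.p6, minus strand, at chr7:142577112-142577133 for the 5p arm and chr7:142577078-142577099 for the 3p arm. Capitals mark the seed, bases 2 to 8. The 2 arms do not share a seed. The gene table measures the host RNA, and the microRNAs themselves were not measured here.
mmu-miR-675-5p: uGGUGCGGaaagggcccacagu
mmu-miR-675-3p: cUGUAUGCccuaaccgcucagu

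Promoter windows are shown for Peg3, Plagl1 and Ndn, the members outside the H19 locus whose coefficients under butyrate or the combination were largest on the fragment scale described below. Each window runs from 250 bases before to 50 bases after a transcript start, 5′ to 3′, as RefSeq gives it for GRCm38.p6. Capitals mark matches on either strand to the GC box GGGCGG, a site of Sp1-type factors, or to TGACGTCA, the cAMP response element. Both motifs were chosen after the windows had been seen. The windows are at chr7:6730370-6730669 (minus strand) for Peg3, chr10:13090582-13090881 (plus strand) for Plagl1 and chr7:62348027-62348326 (plus strand) for Ndn.
Peg3: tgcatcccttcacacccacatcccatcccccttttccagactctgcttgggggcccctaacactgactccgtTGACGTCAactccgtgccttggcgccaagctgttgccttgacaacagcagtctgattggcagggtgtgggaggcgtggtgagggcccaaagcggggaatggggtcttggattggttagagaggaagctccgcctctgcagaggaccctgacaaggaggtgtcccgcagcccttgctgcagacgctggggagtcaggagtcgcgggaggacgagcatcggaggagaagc
Plagl1: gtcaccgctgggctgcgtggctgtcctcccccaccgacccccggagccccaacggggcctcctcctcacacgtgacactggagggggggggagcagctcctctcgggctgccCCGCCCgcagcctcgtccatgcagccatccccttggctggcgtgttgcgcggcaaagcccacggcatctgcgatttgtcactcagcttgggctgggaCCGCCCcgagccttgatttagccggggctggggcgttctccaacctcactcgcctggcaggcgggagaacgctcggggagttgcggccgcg
Ndn: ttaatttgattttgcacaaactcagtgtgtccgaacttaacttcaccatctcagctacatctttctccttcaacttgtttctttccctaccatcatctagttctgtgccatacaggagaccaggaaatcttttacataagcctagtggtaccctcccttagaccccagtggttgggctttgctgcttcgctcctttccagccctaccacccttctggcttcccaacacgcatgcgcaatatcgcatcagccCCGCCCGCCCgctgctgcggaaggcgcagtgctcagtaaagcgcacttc
A window was given for 9 of the 10 members, with 15 windows in all. GGGCGG was present in 9 of the 15 windows, beside 35.7% of all 32851 windows of the same length. Windows of the same gene are not independent: those of Mest that start at 30737800 and 30737803, each with a match, overlap almost fully. TGACGTCA was present in 2 of the 15, those of Peg3 and of 1 of 2 Meg3 starts, beside 1.79% of all windows. On fragments under butyrate, Peg3 had 1.55 ± 0.13 and Meg3 −0.63 ± 0.20, which did not pass the limits given below. A role of the motif was not tested. The 15 windows held 1 (a Meg3 start) to 34 (Igf2r) CG dinucleotides, with 26 for Plagl1, 13 for Peg3 and 11 for Ndn, beside a median of 7 over all windows. The 2 matches in the Ndn window share letters.

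H19 was the member that differed most from vehicle under every treatment. It occupies chromosome 7 from 142129262 to 142131886 on the minus strand, in the coordinates of the table, for which the submitters' processing notes name GRCm39. Its 3 vehicle samples held 37, 55 and 65 fragments. The UK5099 samples held 177, 216 and 249, the butyrate samples 329, 268 and 324, and the combination samples 584, 701 and 648. No group overlapped another in fragments. In deposited TPM the means were 2.79 ± 0.59 in vehicle, 10.4 ± 1.2 under UK5099, 13.1 ± 1.2 under butyrate and 23.5 ± 3.4 in the combination (SD, n = 3 each). TPM here is fragments divided by the listed span of the gene, introns included, and scaled to the same total in each sample. The ratios of mean TPM to vehicle were 3.74, 4.71 and 8.45 in that order.

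**Figure D1:**
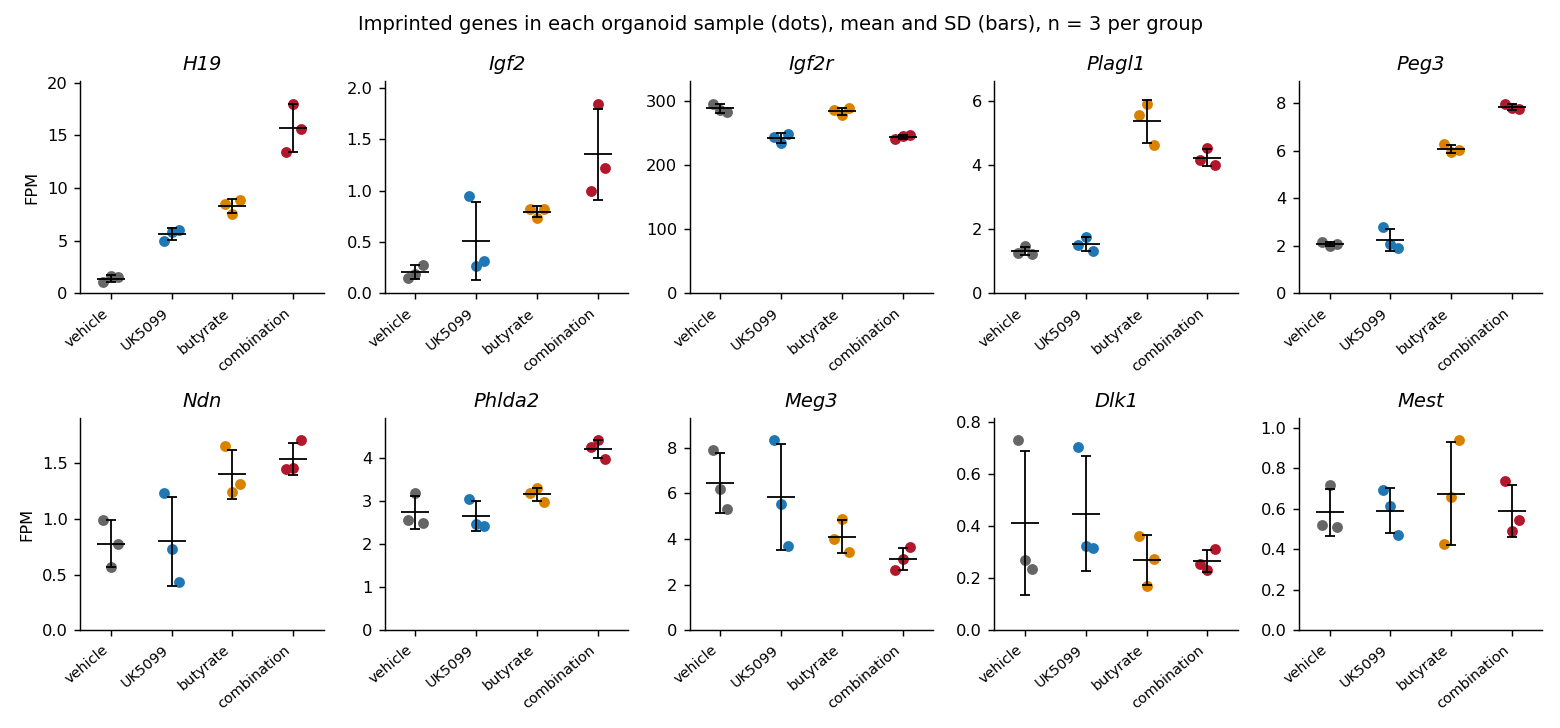
FPM (vertical axes, each from 0) of the 10 imprinted genes in every sample, with 3 dots per group and the mean and SD as bars. H19 stands apart in each treated group, Plagl1 and Peg3 stand high under butyrate and in the combination, and the groups of Dlk1 and Mest overlap.

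Coefficients were taken from 2 fits over all genes. The first took its model and limits from the study's methods and used limma on log2(TPM + 1), where the 1 was added here, with a call at an adjusted p under 0.01 and an absolute coefficient over 1. Because long and low genes have TPM under 1, this scale hides most of their change. The second fit used limma with voom weights on fragments recovered from the TPM values, with the same limits, and its coefficients are log2 fold changes. On log2(TPM + 1), H19 was higher by 1.60 ± 0.14 under UK5099, 1.91 ± 0.14 under butyrate and 2.7 ± 0.14 in the combination (SE, 12 samples in the fit). On fragments it was higher by 2.06 ± 0.22, 2.56 ± 0.21 and 3.53 ± 0.23. Without UK5099 replicate 1 the UK5099 coefficient was 2.15, and without combination replicate 1 that of the combination was 3.64. The 3 comparisons share the vehicle samples, so their coefficients are not independent of each other.

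H19 was the 1 member of 10 called on log2(TPM + 1) under UK5099, under butyrate and in the combination, and no member was called for the interaction. Over all 24674 genes, 1.84% were called under UK5099, 3.54% under butyrate, 6.42% in the combination and 1.01% for the interaction. On fragments, 1 member was called under UK5099, 4 under butyrate, 5 in the combination and 1 for the interaction. The shares of all genes called on that scale were 5.8%, 10.5%, 14.1% and 2.69%. The members' median coefficient on fragments was 0.12 under UK5099, 0.54 under butyrate and 0.89 in the combination, beside 0.01, 0.03 and 0.05 over all genes. These shares set the scale for the members' counts, and nothing is read from the difference, since the members were picked for what they showed.

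The level of H19 in the combination lay above or near the sum of the single differences and far below the product of the single ratios. In FPM, vehicle was at 1.42, UK5099 added 4.19, butyrate added 6.90 and the combination added 14.2. The sum of the single differences puts the combination at 12.5 and the product of the single ratios puts it at 32.9. The 3 combination samples held 13.4, 18.0 and 15.6, all above the sum and below the product. In TPM the sum was 20.8, and the samples held 20.2, 26.9 and 23.6, so that 1 of 3 lay below it. The interaction coefficient, which measures departure from the product, was −0.81 ± 0.20 on log2(TPM + 1), short of the limit of 1, and −1.08 ± 0.24 on fragments. The call on fragments was lost without vehicle replicate 1 (−0.91) and without combination replicate 1 (−0.98). Butyrate minus UK5099 was 0.31 ± 0.14 on log2(TPM + 1) and 0.50 ± 0.22 on fragments, neither past the limits.

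**Figure D2:**
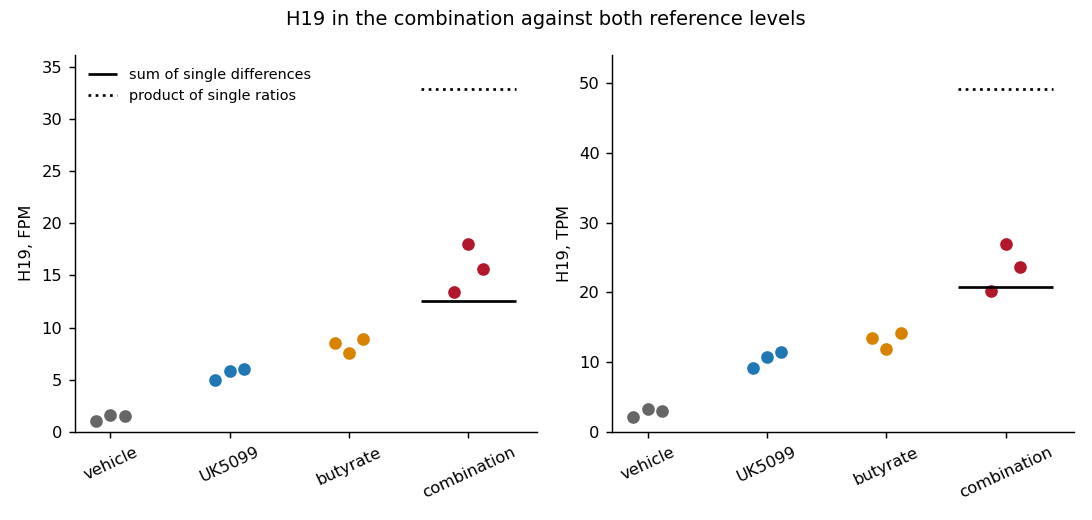
H19 in every sample (dots) as FPM at left and deposited TPM at right, both axes from 0. Over the combination, the solid line is the vehicle level plus both single differences (12.5 FPM, 20.8 TPM) and the dotted line is the product of both single ratios (32.9 and 49.2).

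Igf2, the fetal growth factor transcribed from the neighbouring gene, was far lower than H19 and went the same way on fragments. The 2 genes lie 72.6 kb apart in the table. Its samples held 5.32, 6.31 and 12 fragments in vehicle, 34, 10 and 13 under UK5099, 32, 26 and 30 under butyrate and 43.3, 72 and 51 in the combination. The butyrate and combination samples lay above every vehicle sample, and 1 UK5099 sample, replicate 1, stood apart from the other 2. Coefficients on fragments were 1.07 ± 0.50, 1.87 ± 0.47 and 2.65 ± 0.50 for UK5099, butyrate and the combination, and those of butyrate and the combination passed the limits. With single samples left out, the UK5099 coefficient ranged from 0.55 (without UK5099 replicate 1) to 1.38, the combination coefficient was 2.85 without combination replicate 1, and the butyrate call was lost without vehicle replicate 1 (1.69). The same coefficients on log2(TPM + 1) were 0.11 ± 0.07, 0.18 ± 0.07 and 0.32 ± 0.07, since Igf2 was at 0.067 to 0.333 TPM on average. Of the 12 values, 9 came out as whole fragments. Igf2 overlaps a readthrough gene on its strand (Gm49394) and an antisense gene (Igf2os), so its reads cannot be fully told apart from theirs. Gm49394 averaged 0.025 TPM in vehicle, 1.9e-07 under UK5099, 2.4e-07 under butyrate and 0.0054 in the combination. The vehicle level of Igf2 may therefore be understated and its coefficients overstated, which was not tested.

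Igf2r, the receptor that takes IGF2 to the lysosome, was the most abundant member and changed little in proportion. It held 283 to 296 FPM in vehicle, 234 to 249 under UK5099, 278 to 289 under butyrate and 240 to 246 in the combination. The UK5099 and combination samples lay below every vehicle sample, while butyrate overlapped vehicle. On fragments the coefficients were −0.18 ± 0.02, −0.02 ± 0.02 and −0.16 ± 0.02. As differences of log2(TPM + 1) they were −0.31 ± 0.03, −0.32 ± 0.03 and −0.58 ± 0.03. There the median coefficient of the 14437 genes with at least 1 TPM in a group was itself −0.12, −0.29 and −0.40, so that the butyrate difference of Igf2r was close to that of the median gene. With quantile normalisation its butyrate coefficient was 0.05, the opposite sign.

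The paternally expressed zinc finger genes Plagl1 and Peg3 were higher under butyrate and in the combination, while their UK5099 coefficients did not pass the limits. PLAGL1 is a transcription factor linked to cell cycle arrest, and PEG3 is a zinc finger protein studied for its part in maternal behaviour and in cell death. Plagl1 held 44, 49 and 52 fragments in vehicle, 54, 66 and 55 under UK5099, 215, 210 and 169 under butyrate and 181, 177 and 167 in the combination. Both groups lay above all others. They overlapped in fragments, but not scaled for depth, where butyrate (4.64 to 5.92 FPM) lay above the combination (4.01 to 4.54). Peg3 held 74, 66 and 89 fragments in vehicle, 99, 77 and 78 under UK5099, 243, 211 and 220 under butyrate and 347, 304 and 323 in the combination. Its combination samples lay above every butyrate sample. On fragments, Plagl1 was at 0.28 ± 0.20, 2.02 ± 0.16 and 1.76 ± 0.19 for UK5099, butyrate and the combination, and Peg3 at 0.15 ± 0.15 (0.01 without UK5099 replicate 1), 1.55 ± 0.13 and 1.99 ± 0.14. Their butyrate and combination coefficients passed the limits with every single sample left out.

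Butyrate and UK5099 were also set against each other directly. The coefficients of this comparison leave out the vehicle level, while their errors come from the fit of all 12 samples. On fragments, Plagl1 was higher under butyrate than under UK5099 by 1.73 ± 0.19 and Peg3 by 1.39 ± 0.14. These were the 2 members of 10 past the limits, beside 7.21% of all genes. Without UK5099 replicate 1, Ndn also passed (1.23, from 0.88). None of the 10 passed on log2(TPM + 1), beside 1.86% of all genes. The interaction coefficients of Plagl1 (−0.54 ± 0.23) and Peg3 (0.29 ± 0.18) on fragments did not pass.

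**Figure D3:**
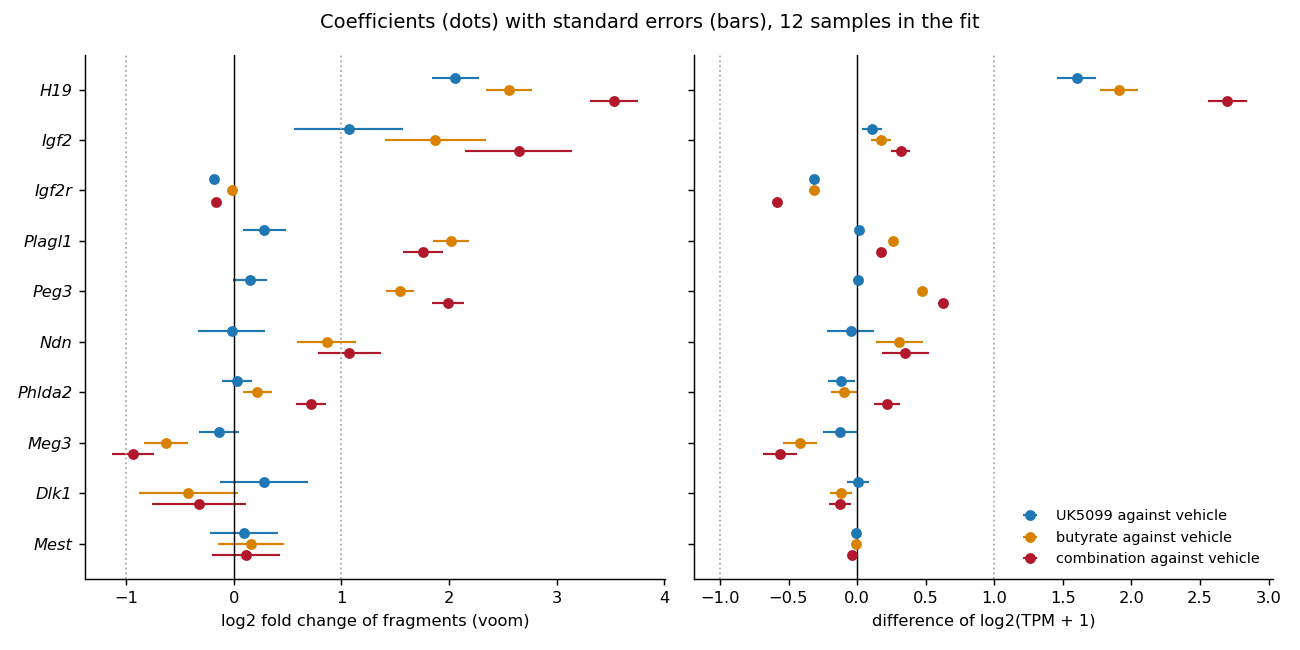
Coefficients (dots) with standard errors (bars) of the 10 genes against vehicle, on fragments at left and on log2(TPM + 1) at right, with dotted lines at the limit of 1. H19 is past 1 in all 3 comparisons in both panels, while on fragments only Igf2, Plagl1 and Peg3 are past 1 under butyrate and the combination, Ndn in the combination (1.07) and Igf2 under UK5099 (1.07, not called).

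Ndn and Phlda2 had smaller differences. NDN is a MAGE family protein that restrains growth in neurons, and PHLDA2 is a pleckstrin homology domain protein known for limiting placental growth. Ndn held 34, 19 and 33 fragments in vehicle, 44, 27 and 18 under UK5099, 64, 44 and 48 under butyrate and 63, 57 and 71 in the combination. The butyrate and combination samples lay above every vehicle sample and overlapped each other. Its coefficient on fragments was 0.86 ± 0.27 under butyrate and 1.07 ± 0.29 in the combination. The combination call was lost without vehicle replicate 2 (0.89), vehicle replicate 3 (1.08) or combination replicate 3 (1.00). Phlda2 held 88 to 106 fragments in vehicle, 92 to 109 under UK5099, 109 to 123 under butyrate and 166 to 185 in the combination. Its combination coefficient was 0.71 ± 0.14 on fragments and 0.22 ± 0.10 on log2(TPM + 1), and neither passed. Its butyrate coefficient was −0.10 ± 0.10 on log2(TPM + 1) and 0.22 ± 0.14 on fragments, so the sign depended on the scale.

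Meg3, a long noncoding RNA of the Dlk1 locus, had the lowest coefficients of the members on fragments under butyrate and in the combination. It held 7.89, 6.20 and 5.29 FPM in vehicle, 8.32, 5.52 and 3.70 under UK5099, 3.99, 4.88 and 3.43 under butyrate and 2.64, 3.13 and 3.63 in the combination. Butyrate and combination samples lay below every vehicle sample, and the UK5099 samples spanned both. On fragments the coefficients were −0.14 ± 0.18 (−0.41 without UK5099 replicate 1), −0.63 ± 0.20 and −0.94 ± 0.20 (−0.82 without combination replicate 1), short of the limit of 1. The combination passed it without vehicle replicate 3 (−1.10) and without combination replicate 3 (−1.05). Of the 12 Meg3 values, 5 were whole fragments.

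Dlk1 and Mest were close to the lower end of what this depth can measure. DLK1 is a transmembrane protein with EGF-like repeats that holds back adipocyte differentiation, and MEST is a hydrolase-like protein of mesoderm. Dlk1 held between 6 and 25 fragments per sample. Its 2 highest values, 25 each, were vehicle replicate 1 and UK5099 replicate 1. Its coefficients on fragments were 0.28 ± 0.41 (−0.06 without UK5099 replicate 1), −0.42 ± 0.46 and −0.32 ± 0.43. Mest held between 16.5 and 34.2 fragments, none of the 12 values was whole, and it overlaps the antisense gene Copg2. Its coefficients on fragments lay between 0.09 and 0.16 with an SE of 0.31, and were −0.01 under UK5099 without UK5099 replicate 1 and −0.06 in the combination without combination replicate 1. Differences of this size were not detectable at this depth for either gene.

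Levels of the members were compared with each other per exonic length, as FPM per exonic kilobase, because the deposited TPM divides by the whole span. In vehicle the order began with Igf2r at 31.0 ± 0.7, followed by Phlda2 at 2.45 ± 0.34, H19 at 0.577 ± 0.123 and Meg3 at 0.357 ± 0.073. The lower members were Ndn at 0.211 ± 0.057, Plagl1 at 0.169 ± 0.017, Peg3 at 0.156 ± 0.006, Mest at 0.148 ± 0.030, Dlk1 at 0.0727 ± 0.0485 and Igf2 at 0.0365 ± 0.0115. From Ndn down, the mean ± SD of each pair of neighbours overlapped, only narrowly for Mest and Dlk1, so the order between neighbours is not resolved. Those of the 4 highest, and of Meg3 and Ndn, did not overlap. Every vehicle sample of Dlk1 (at most 0.129) and Igf2 (at most 0.0493) lay below every one of Ndn, Plagl1, Peg3 and Mest. In the combination H19 was at 6.37 ± 0.93, second of the 10 and above Phlda2 at 3.76 ± 0.19. Peg3 then stood at 0.589 ± 0.009, Plagl1 at 0.542 ± 0.035, Ndn at 0.417 ± 0.039, Igf2 at 0.237 ± 0.077 and Meg3 at 0.173 ± 0.027. H19 moved from 3rd to 2nd place and Meg3 from 4th to 8th.

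The genes near H19 with at least 1 TPM had smaller coefficients against vehicle than H19. Within 250 kb, 6 other genes had a mean of at least 1 TPM in some group, and none was called in any comparison on either scale. The cathepsin gene Ctsd was at 336 TPM in vehicle and 273 in the combination, with 0.28 ± 0.02 on fragments under UK5099 (limma adjusted p = 1.4e-09). In the combination its sign depended on the scale, with −0.30 ± 0.03 on log2(TPM + 1) and 0.16 ± 0.03 on fragments. Syt8, a synaptotagmin, was at 28.4 TPM in vehicle and 39.5 in the combination, with 0.94 ± 0.04 on fragments (adjusted p = 4.4e-15). Ifitm10 had 0.91 ± 0.07 in the combination (adjusted p = 5.4e-11) and Tnni2, a troponin gene, 0.74 ± 0.14 (adjusted p = 5.7e-05). Mrpl23, the nearest of them, had 0.30 ± 0.19 (adjusted p = 0.19). Gm7290, a processed pseudogene with 76.0 fragments in all, had 2.36 ± 0.74 under butyrate (adjusted p = 0.010, above the limit before rounding). The difference between H19 and its neighbours was not tested.

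**Figure D4:**
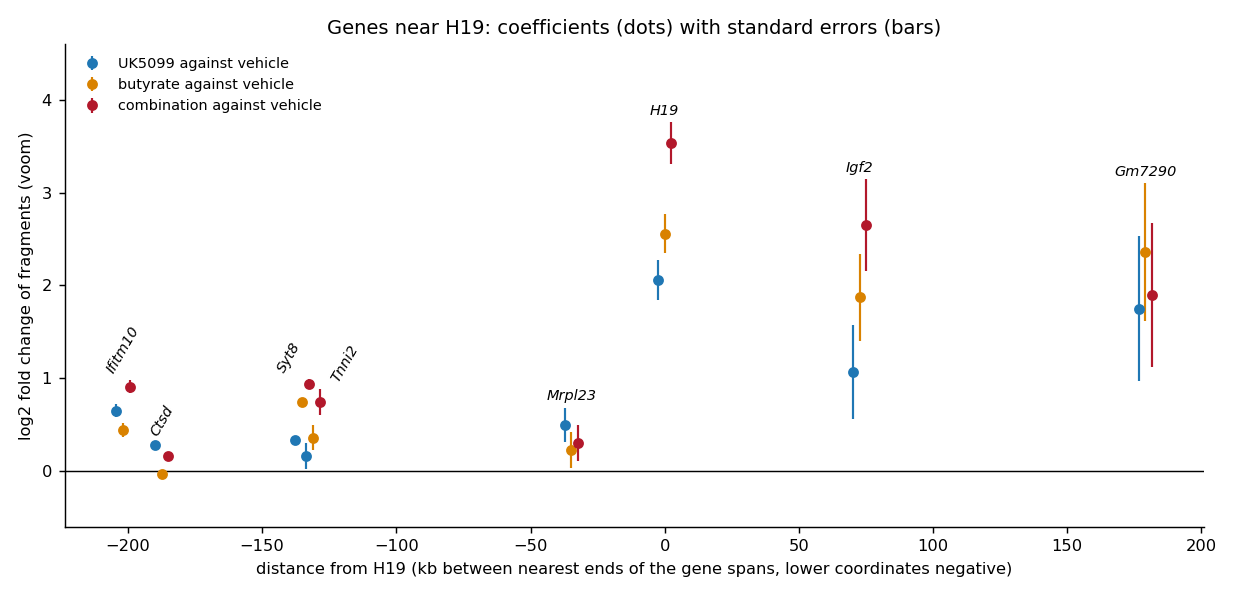
Log2 fold change on fragments (dots) with standard errors (bars) against distance from H19 in kb, for Igf2 and the genes with at least 1 TPM. H19 reaches 3.53 in the combination, Igf2 2.65 and the genes on the other side at most 0.94. Gm7290, beyond Igf2, is at 2.36 ± 0.74 under butyrate, where H19 is at 2.56 ± 0.21.

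Of the other genes, the 5 whose log2(TPM + 1) was most like that of H19 over the 12 samples were taken from 1889 genes whose overall mean reached 1 TPM, with a range of group means of at least 1. They were Deptor, an inhibitor of mTOR (Pearson r = 0.985), Dbp, a circadian transcription factor (0.985), Fam162a (0.985), the cytochrome P450 gene Cyp2s1 (0.984) and the keratin gene Krt23 (0.983). Deptor went from 0.891 TPM in vehicle through 2.11 and 2.68 to 3.67 in the combination, in the order of groups used above. Krt23 went from 1.47 through 3.86 and 4.70 to 7.40. The 12 points share 4 group means, so a high r is given as a description only.

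A wider list of 64 other imprinted genes, 54 of them in the table, was then examined. Several of these are imprinted only in some tissues. On log2(TPM + 1), 0 were called under UK5099 by limma (25 had an unadjusted p under 0.05 and 17 an adjusted p under 0.01), 3 under butyrate, 1 in the combination and 1 for the interaction. On fragments, 3 were called under UK5099, all lower. With butyrate 9 were called, 8 higher and 1 lower, and in the combination 12, of which 7 were higher and 5 lower. The list's median coefficient on fragments was −0.07 under butyrate and −0.02 in the combination, beside 0.03 and 0.05 over all genes. In shares on fragments, 5.56% of the list was called under UK5099, 16.7% under butyrate and 22.2% in the combination, beside the 5.8%, 10.5% and 14.1% given above for all genes. On log2(TPM + 1) the shares were 0%, 5.56% and 1.85%, beside 1.84%, 3.54% and 6.42%.

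Butyrate raised Sgce, Sfmbt2 and Grb10 on the fragment scale. Sgce, which encodes a sarcoglycan, held 2, 1 and 3 fragments in vehicle, 2 in each UK5099 sample, 86, 72 and 98 under butyrate and 56, 51 and 53 in the combination. Its coefficient under butyrate was 5.14 ± 0.48 (limma adjusted p = 1.8e-09). Peg10, a retrotransposon-derived gene that starts beside it on the other strand, had 1.47 ± 0.23 under butyrate (adjusted p = 6.1e-06). In the combination Peg10 had 0.70 ± 0.27 (adjusted p = 0.032) and was not called. Sfmbt2, a Polycomb group gene, held 6, 4 and 2 fragments in vehicle and 56, 42 and 58 under butyrate, with 3.68 ± 0.45 (adjusted p = 2.1e-07). Peg12, a paternally expressed gene of the region that also holds Ndn, had 1.64 ± 0.35 (adjusted p = 0.00038). Slc38a4, an amino acid transporter gene, held 1 fragment over the 3 vehicle samples and 5, 11 and 12 under butyrate.

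Grb10, an adaptor that restrains insulin and IGF1 receptor signalling, went in opposite directions with the 2 drugs. It held 68, 61 and 82 fragments in vehicle, 23, 16 and 22 under UK5099, 263, 274 and 241 under butyrate and 321, 364 and 415 in the combination. Scaled for depth, UK5099 lay below vehicle and both butyrate groups above it, while butyrate (6.61 to 7.73 FPM) and the combination (7.38 to 9.98) overlapped. On fragments the coefficients were −1.76 ± 0.29 under UK5099 (adjusted p = 2.5e-05), 1.87 ± 0.16 under butyrate (adjusted p = 4.8e-10) and 2.27 ± 0.24 in the combination (adjusted p = 1e-08). The interaction was 2.17 ± 0.31 (adjusted p = 7.5e-06). The gene was at 0.0242 to 0.325 TPM on average and was not called on log2(TPM + 1).

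Other imprinted genes were lower. The potassium channel gene Kcnq1 fell in the combination by 2.12 on fragments (SE 0.05, adjusted p = 8e-22), and the phospholipid transporter gene Atp10a by 2.60 (SE 0.09, adjusted p = 9.6e-18). Kcnq1 overlaps the antisense Kcnq1ot1 and 2 other genes, so its reads cannot be fully told apart from theirs. Ppp1r9a, which encodes neurabin, fell under UK5099 by 1.86 (SE 0.15, adjusted p = 3.1e-10) and in the combination by 1.58 (SE 0.13, adjusted p = 2.3e-10). The Meg3 neighbours Rian and Rtl1 had −1.003 ± 0.28 (adjusted p = 0.0033) and −2.47 ± 0.73 (adjusted p = 0.0058) in the combination, from at most 34 and 8 fragments in any sample. Cdkn1c, the cell cycle inhibitor p57 and a maternally expressed gene of the same chromosome region as H19, was not called against vehicle (−0.81 ± 0.15 under UK5099, −0.34 ± 0.14 under butyrate, 0.00 ± 0.15 in the combination).

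Some of these calls rested on single samples. Ascl2 in the combination went from 2.09 to 1.72 without vehicle replicate 3 (adjusted p = 0.022), and its butyrate call was lost without vehicle replicate 1 or 3 or butyrate replicate 1 or 3 (1.35 to 1.79). Rtl1 in the combination was lost without vehicle replicate 3 (−2.03, adjusted p = 0.037) or combination replicate 1 or 3 (−2.05 and −2.08). Rian was lost without vehicle replicate 1 (−0.99) or 2 (−0.89) or combination replicate 2 (−0.91, adjusted p = 0.019). Slc38a4 in the combination was lost without replicate 1 or 2 of vehicle or of the combination (3.27 to 3.36), with adjusted p between 0.010 and 0.019. Peg12 in the combination lost its call without replicate 2 or 3 of either group (adjusted p 0.011 to 0.017), and Atp10a under UK5099 fell below the limit of 1 without UK5099 replicate 2 (−0.97) or vehicle replicate 1 or 2 (−0.99 each). Sgce, Sfmbt2, Grb10, Kcnq1 and Ppp1r9a kept the calls named here with every single sample left out.

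**Figure D5:**
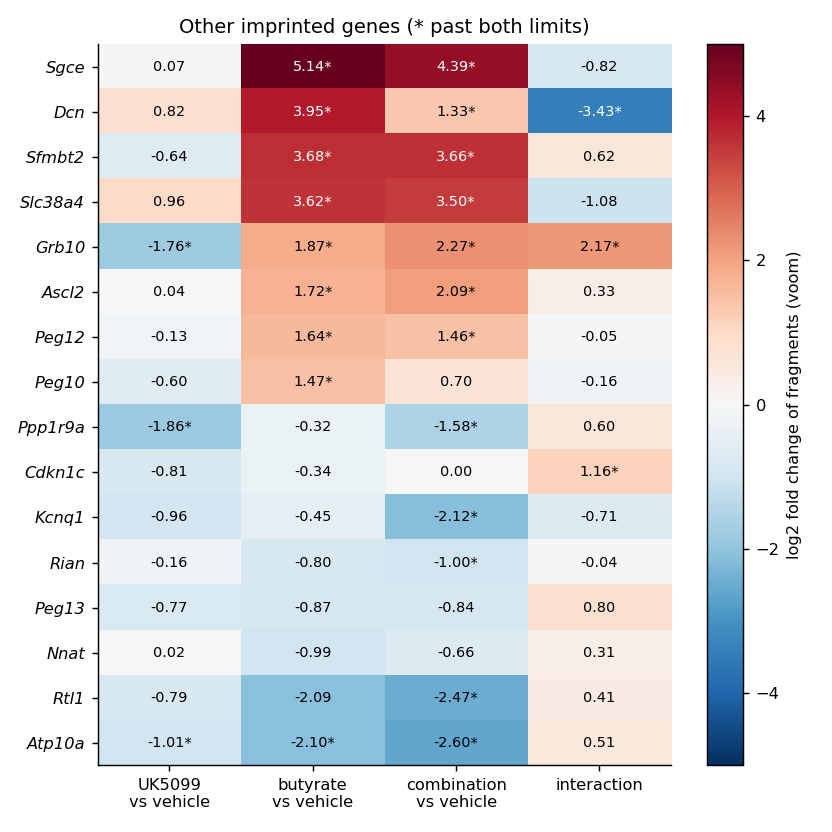
Log2 fold changes on fragments (colour and printed value) of the 16 other imprinted genes past both limits against vehicle or for the interaction on either scale, with an asterisk where they passed on fragments. Sgce is highest under butyrate at 5.14, Atp10a lowest in the combination at −2.60, and Grb10 is −1.76 under UK5099 and 1.87 under butyrate. The values of Slc38a4 and Rtl1 rest on few fragments.

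On log2(TPM + 1) the genes of the wider list called against vehicle or for the interaction were Dcn, Peg13 and Nnat. Dcn encodes decorin, a proteoglycan of connective tissue. It was at 0.762 TPM in vehicle, 1.22 under UK5099, 9.51 under butyrate and 1.41 in the combination, with 2.58 ± 0.07 for butyrate (adjusted p = 2.2e-09) and −2.46 ± 0.10 for the interaction (adjusted p = 3.9e-07). It held 3109 to 3456 fragments under butyrate and at most 607 in any other sample. Peg13, a noncoding RNA, had −1.03 ± 0.06 under butyrate (adjusted p = 2.5e-07) and −1.13 ± 0.06 in the combination (adjusted p = 8.6e-08). On fragments Peg13 had −0.87 and −0.84, past the limit of adjusted p (1.1e-08 and 1.6e-08) and short of the limit of 1. Peg13 lies within Trappc9, and 1 of its 12 values was whole. Nnat, which encodes neuronatin, had −1.11 ± 0.15 under butyrate (adjusted p = 0.00017) and −0.99 ± 0.17 on fragments. The Peg13 call under butyrate was lost without vehicle replicate 1 (−0.99) and without butyrate replicate 3 (−0.97).

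The insulin-like growth factor axis was read as the pathway that Igf2 and Igf2r belong to, with 16 of 20 listed genes in the table. On log2(TPM + 1), 1 gene was called under butyrate and 1 in the combination, in both cases Igfbp4, and 1 for the interaction, Igfbp7. Igfbp4, a secreted binding protein of IGFs, went from 10.4 TPM in vehicle to 16.8 under UK5099, 42.2 under butyrate and 42.1 in the combination, and its coefficient under butyrate was 1.92 ± 0.04 (adjusted p = 8.5e-10). Igfbp7 was at 6.29 TPM in vehicle, 4.36 under UK5099, 3.26 under butyrate and 5.32 in the combination, with an interaction of 1.01 ± 0.04 (adjusted p = 4.3e-07), which fell below 1 without UK5099 replicate 2 (0.98), butyrate replicate 2 (0.99) or combination replicate 2 (0.997). On log2(TPM + 1), 1 of 16 is 6.25%, beside 3.54%, 6.42% and 1.01% of all genes. On fragments, 2 were called under UK5099 (12.5%), 5 under butyrate (31.2%) and 5 in the combination (31.2%), beside 5.8%, 10.5% and 14.1% of all genes.

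The ligand Igf1 was lower in every treated sample. It held 212, 221 and 260 fragments in vehicle, 9, 6 and 11 under UK5099, 5, 8 and 5 under butyrate and 0, 1 and 3 in the combination. Its coefficient on fragments was −4.67 ± 0.32 under UK5099 (adjusted p = 1.2e-11) and −5.20 ± 0.36 under butyrate (adjusted p = 1e-11). Igf1 was at 0.413 TPM in vehicle and was not called on log2(TPM + 1). Igf2bp1, an RNA-binding protein of fetal tissue that binds Igf2 and H19 RNA, held 4, 0 and 1 fragments in vehicle, 35, 29 and 36 under butyrate and 84, 58 and 67 in the combination. Irs2, an adaptor of the insulin and IGF1 receptors, had 1.03 ± 0.04 in the combination (adjusted p = 3e-17), which fell to 0.99 without vehicle replicate 2. Igfbp5 had −1.16 ± 0.13 under UK5099 (adjusted p = 9.6e-08) and 0.64 ± 0.09 under butyrate (adjusted p = 2.4e-06). Igfals had −1.15 ± 0.17 under butyrate (adjusted p = 2.4e-06), and −0.95 without butyrate replicate 1. Igfbp6 held at most 7 fragments in any sample, and its calls under butyrate and in the combination were lost with any 1 vehicle sample left out.

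Factors that keep imprints, such as the zinc finger proteins ZFP57 and ZFP445, TRIM28 and the DNA methyltransferases, were listed as a further 15 genes, with 11 in the table. None was called on log2(TPM + 1) by limma in any of the 4 comparisons, where 8, 11, 9 and 7 had an unadjusted p under 0.05. With butyrate 10 of the 11 had an adjusted p under 0.01, 9 of them lower. In either direction, 45.6% of all genes passed that limit, as did 67.2% of the 14437 genes with at least 1 TPM in a group. The list itself was not filtered by TPM. Its median was −0.40, beside −0.29 over those 14437 genes. The medians on fragments were −0.25 and −0.04. On fragments 1 was called under butyrate and 1 in the combination, in both cases Dnmt3l, a cofactor of de novo DNA methylation. This is 9.09% of the list, beside 10.5% and 14.1% of all genes. Dnmt3l held 1 fragment over the vehicle samples, 10, 5 and 10 under butyrate and 26, 18 and 23 in the combination.

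Marker genes were read for the cell types a culture could hold. The 4 basal markers Krt5, Krt14, Trp63 and Krt15 summed to between 6494 and 6620 TPM in vehicle, 13438 and 13813 under UK5099, 6887 and 7124 under butyrate and 9936 and 10347 in the combination. All 4 were higher under UK5099, but they split under butyrate and in the combination. Krt5 was at 1848 TPM in vehicle, 3152 under butyrate and 4514 in the combination, and Trp63 at 5.23, 8.46 and 8.76. Krt14 was at 1676, 1391 and 3641, and Krt15 at 3029, 2426 and 1932. The 4 luminal markers Krt8, Krt18, Krt19 and Prom1 summed to 4139 to 4309 TPM in vehicle, 2330 to 2489 under UK5099, 2243 to 2283 under butyrate and 1390 to 1577 in the combination. The epithelial label was thus borne out by its markers. H19 was highest where the luminal sum was lowest, and the part of epithelial composition in the H19 values was not tested. In bulk RNA, a change in the share of cells that express a gene and a change in RNA per cell cannot be told apart. Stromal markers, 8 of 9 in the table, summed to 2.52 to 2.60 TPM in vehicle, 2.74 to 3.12 under UK5099, 10.7 to 11.04 under butyrate and 2.34 to 2.74 in the combination. Dcn alone accounted for the higher sum, and Col1a1 was at 1.01 TPM in vehicle, 0.943 under UK5099, 0.713 under butyrate and 0.615 in the combination. The 4 endothelial markers summed to at most 0.0426 TPM in any sample. Of blood markers, 4 of 5 in the table, Ptprc held at most 4 fragments in any sample. The blood sum was 233.9 to 244.4 TPM in vehicle, 84.2 to 92.1 under UK5099, 96.9 to 99.5 under butyrate and 101.0 to 110.9 in the combination, and it came from Cd14 and Cd68, which went opposite ways. Cd14 was at 215 TPM in vehicle, 57.6 under UK5099, 30.7 under butyrate and 14.5 in the combination, and Cd68 at 24.2, 30.2, 67.4 and 91.7. Neuroendocrine markers, 2 of 3 in the table, summed to 0.157 to 0.645 TPM over all samples.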

How the data were processed

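RNA-seq was read from 12 samples, grouped by their labels. Trimming with fastp and alignment with STAR are given in the study's methods, with RSEM for quantification and GRCm38, while the submitters' processing notes name STAR 2.7.9a, Partek and GRCm39. The authors deposited TPM per gene. These TPM values equal fragments divided by the listed span (stop minus start in 100% of genes), so introns dilute long genes. Fragments were recovered from the steps of low values: 75.4% to 76.6% of protein-coding values under 1000 fragments were whole within 0.02.

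All 24674 genes and 12 samples entered limma 3.58.1 (R 4.3.3) with UK5099, butyrate and their interaction, on log2(TPM + 1) and, as an alternative, by voom on fragments with median of ratios scaling. Calls needed an adjusted p (Benjamini-Hochberg) under 0.01 and an absolute coefficient over 1. On simulated data with 200 genes changed by 2 on the log2 scale, UK5099 gave 92 recovered on log2(TPM + 1) and 136 by voom, with 0 unchanged genes called. Exonic lengths came from GENCODE by gene ID for 23913 genes. Replicates within groups differed by more than sampling noise (chi-square per gene over 1). Tables were made with Python 3.11.15.

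The members and gene lists were chosen with earlier results of these data known. Named were all members, genes of the wider, growth factor and maintenance lists past the limits (at most 15, 8 and 8), genes within 250 kb of H19 with at least 1 TPM and the 5 most like H19. Applying that rule to fragments as well was decided after the values had been seen, as were voom fits with a replicate block or a sample left out. Other settings were pseudocounts of 0.1 and 0.01, a filter at 1 TPM, other scalings, a replicate block, a trended and robust prior, fits of 2 groups and leaving out each sample.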

Additional observations from a re-analysis of the deposited data

Results flagged for a closer look

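Among the 10 members and the 54, 16 and 11 genes of the wider, growth factor and maintenance lists, 5 had an interaction past both limits. For these, the response to one drug differed with the other drug present. Over all genes, 1.01% passed on log2(TPM + 1) and 2.69% on fragments. Nothing is read from the count, since members and lists were chosen with results of these data known. For H19 the interaction passed on fragments, with −1.08 ± 0.24, and not on log2(TPM + 1), with −0.81 ± 0.20. Its call was lost without vehicle replicate 1 (−0.91) and without combination replicate 1 (−0.98). Dcn had −2.46 on log2(TPM + 1) and −3.43 on fragments: 3109 to 3456 fragments per sample under butyrate alone and 526 to 607 in the combination. Igfbp7 had 1.01 on log2(TPM + 1) and 1.23 on fragments, and the former fell below 1 without replicate 2 of UK5099, butyrate or the combination. Grb10 had 2.17 on fragments. Cdkn1c had 1.16 on fragments. It was at 7.26 TPM in vehicle, 3.82 under UK5099, 4.62 under butyrate and 5.31 in the combination, and 6 of its 12 values were whole fragments.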

How the results depend on the processing

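The call of H19 against vehicle held in each of the 3 comparisons under every alternative run. The counts of members called moved with the weight given to low values: under butyrate from 1 to 3 with a pseudocount of 0.1 or 0.01 and 4 by voom on fragments, in the combination from 1 to 4, 5 and 5 under the same 3 settings, and for the interaction from 0 to 1 by voom or after rescaling to protein-coding genes. The wider imprinted list moved from 0 to 5 (pseudocount 0.01) and 3 (voom) under UK5099. With butyrate it moved from 3 to 7 and 10 (pseudocounts 0.1 and 0.01), 9 (voom) and 1 (median of ratios or quantile normalisation). With the combination it moved from 1 to 8, 15, 12 and 0 under those settings in the same order, and to 3 after rescaling to protein-coding genes. For the interaction it moved from 1 to 2, 3 and 3 (pseudocounts 0.1 and 0.01, voom).

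With single samples left out, the members called numbered 1 to 1 against vehicle and 0 to 0 for the interaction on log2(TPM + 1). On fragments they numbered 1 to 1 under UK5099, 3 to 4 under butyrate, 4 to 5 in the combination and 0 to 1 for the interaction. The wider list gave 0 to 0, 2 to 3, 1 to 2 and 1 to 2 on log2(TPM + 1) and 2 to 4, 8 to 9, 9 to 12 and 3 to 3 on fragments, in that order.

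No pairing of the samples by replicate number was seen: of 18 same-numbered pairs, 0 had deviations correlated above 0.1 (−0.11 to 0.03), and 1 of 12 samples correlated best with its own number. With 3 samples per group and no source given for the replicates, this cannot exclude a pairing. With a replicate block the members called remained 1, 1, 1 and 0 in number on log2(TPM + 1). On fragments a replicate block gave 6 members in the combination, Meg3 added (−1.002), and 11 wider-list genes, Rtl1 lost (adjusted p = 0.011 by limma). Of 1028 coefficients of single genes recomputed under alternatives, 888 kept within the spread or the call, 125 moved by more, 15 lost their call and 0 called ones changed sign. Igf2, Dlk1, Ndn and Mest held under 100 fragments in every sample, and H19, Plagl1 and Peg3 did so in vehicle. Counting error is only part of the spread of these values, since replicates differed by more than sampling noise.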
